A study of Mus musculus with 89 samples.

Results

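The subject is 31 mouse genes of glycolysis and of the response to low oxygen, followed across neutrophil segments of mouse squamous cell carcinoma. They were chosen as a list of glucose and lactate transporters, glycolytic enzymes, hypoxia targets and their regulators, with earlier results of these data known. All 31 were found by symbol among the 19962 targets of the panel. In the study, 89 segments of tumour sections were profiled with the GeoMx digital spatial profiler, in which ultraviolet light frees the oligonucleotide tags bound to RNA within an area drawn on a stained image. The labels call every segment neutrophil, and the stated purpose was to profile neutrophils of different tumour regions and how they respond to immunotherapy. The authors' annotation puts the segments into 7 classes of stage and location. The naive slide (before treatment) held 15 stroma segments, 13 at the interface of stroma and tumour and 14 within the tumour. The acute slide (after treatment) held 9 stroma and 2 interface segments. The relapse slide (after treatment) held 14 stroma and 22 interface segments. Strain, age, agent and the number of animals are not given in the sources used here.

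There was 1 slide for each stage, and a stage cannot be told apart from its slide. The slide name of the relapse segments reads "treated", the scan name of the naive slide names HRass and that of the relapse slide names DMBA, so the tumour model may also differ between them. Collection plate followed stage too: naive segments lay on plate G, relapse segments on plate H, and acute stroma on both (4 segments on G, 5 on H). Depth, taken as the sum of the counts of all targets above 1 count, had a median of 11428 per segment (915 to 228562). It was lower in relapse (class medians 6241.5 in stroma and 5564.5 at the interface) than in naive stroma (16264) or naive interface (26878). Of all target values 69.1% lay at 1 count, the lowest value deposited, which is called the floor here. The 15 neutrophil markers took 6.93 to 14.8 of each 10000 counts in the 7 classes, and 2 of the 15 were measured often enough to be tested. An average target of the panel would take 0.501, so 15 average targets would lie near the low end of this range. The highest share, 14.8, was that of the acute interface with its 2 segments. The 9 fibroblast markers took 123 of each 10000 counts in naive stroma and the 13 keratinocyte markers 108 at the relapse interface. These segments thus held RNA that marks other cell types.

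Glycolysis splits glucose into pyruvate through a chain of cytosolic enzymes, and lactate dehydrogenase turns the pyruvate into lactate. When oxygen is low, the transcription factor subunit HIF-1alpha escapes degradation and raises many of these enzymes, together with transporters, regulators of mitochondria and angiogenic factors. Neutrophils hold few mitochondria and draw most of their energy from glycolysis. Txnip is known to go the other way: it is an arrestin-like inhibitor of thioredoxin that lowers glucose uptake, and its transcription rises with glucose.

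The 5 members that differed between classes lie, in the GRCm38.p6 assembly of RefSeq, at chr7:126795234-126800994 (Aldoa), chr6:124810586-124814158 (Tpi1), chr4:150236708-150248879 (Eno1), chr7:46842274-46855627 (Ldha) and chr3:96557957-96561857 (Txnip). The submitters' processing notes name mm10, the same assembly. The core motif bound by HIF-1 is ACGTG or GCGTG. On both strands, with overlapping matches counted, it was found in the 250 bases before the start of 38.6% of 27025 RefSeq promoters and of 23 of the 30 members that have an entry. The E-box CACGTG, which contains ACGTG, was in 6.0% of all promoters and in 4 of the 30. The promoters of 3 enzymes that were higher at the relapse interface, and of Txnip, are printed 5′ to 3′ on the gene's strand to show how they differ in this motif, which is in capitals. For Ldha the window is the first one RefSeq lists and precedes a start inside the gene's annotated span.

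Eno1, chr4:150236458-150236707, + strand: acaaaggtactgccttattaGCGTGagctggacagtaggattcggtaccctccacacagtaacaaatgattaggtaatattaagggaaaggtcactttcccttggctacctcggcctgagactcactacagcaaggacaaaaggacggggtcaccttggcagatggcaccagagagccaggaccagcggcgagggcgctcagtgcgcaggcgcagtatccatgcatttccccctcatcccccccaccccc
Ldha, chr7:46845554-46845803, + strand: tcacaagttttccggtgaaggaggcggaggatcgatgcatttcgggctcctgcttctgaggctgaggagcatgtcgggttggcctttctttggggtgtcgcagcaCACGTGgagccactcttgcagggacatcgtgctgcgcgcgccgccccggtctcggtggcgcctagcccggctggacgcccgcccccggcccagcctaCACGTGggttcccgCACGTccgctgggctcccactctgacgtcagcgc
Tpi1, chr6:124814159-124814408, - strand: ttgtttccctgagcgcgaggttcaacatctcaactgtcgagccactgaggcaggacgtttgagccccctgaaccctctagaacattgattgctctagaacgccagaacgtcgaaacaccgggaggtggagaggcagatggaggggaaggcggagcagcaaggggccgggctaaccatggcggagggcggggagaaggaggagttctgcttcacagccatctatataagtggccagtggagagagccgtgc
Txnip, chr3:96557707-96557956, + strand: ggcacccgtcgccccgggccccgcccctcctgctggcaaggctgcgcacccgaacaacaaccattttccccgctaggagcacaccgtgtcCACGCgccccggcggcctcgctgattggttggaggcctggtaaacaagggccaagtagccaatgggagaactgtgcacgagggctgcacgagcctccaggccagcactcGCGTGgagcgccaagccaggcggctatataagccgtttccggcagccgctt

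Ldha held 5 matches, of which 4 come from 2 E-boxes, Txnip held 2 and Eno1 held 1. Tpi1 held 0, and so did the first listed window of Aldoa, which is not printed. A value of 0 says only that these letters are not in that window.

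The members were a small part of the RNA in every class. Together they took 29.8 of each 10000 counts in naive stroma, 25.6 at the naive interface, 29.8 within the naive tumour, 25.7 in acute stroma and 29.7 at the acute interface. The share was 38.6 in relapse stroma and 49.9 at the relapse interface. An average set of 31 targets of the panel would take 15.5. Single segments ranged from 24.6 to 50.5 in naive stroma (median 30.3), from 18.3 to 41.2 at the naive interface (27.4) and from 15.4 to 87.2 within the naive tumour (30.1). They ranged from 22.4 to 32.4 in acute stroma (25.4), from 12.4 to 93.9 in relapse stroma (41.5) and from 21.9 to 102.2 at the relapse interface (52.3), and 26.4 and 32.9 were the values of both acute interface segments. The ranges of all classes overlap. The shares were not tested.

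Shallow segments had higher shares within a slide as well. In naive stroma the pooled share was 43.9 in the 4 segments under 10000 counts and 29.2 in the 11 others, and at the relapse interface it was 57.1 in 17 and 41.96 in 5. At 10000 counts or more the relapse interface (41.96, n = 5) and relapse stroma (34.7, n = 5) lay above the naive interface (25.5, n = 11) and naive stroma (29.2, n = 11). Depth was not equal in this range. Its median was 13305 at the relapse and 26969 at the naive interface, and 15317 in relapse and 35284 in naive stroma. Housekeeping genes moved in the same direction between some of the classes: 13 of them took 36.1 of each 10000 counts in naive stroma, 17.9 at the naive interface and 48.03 at the relapse interface. The ratio of members to housekeeping counts was 0.826 in naive stroma, 1.44 at the naive interface and 1.04 at the relapse interface. The part of depth and of overall RNA content in the share was not tested.

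**Figure D1:**
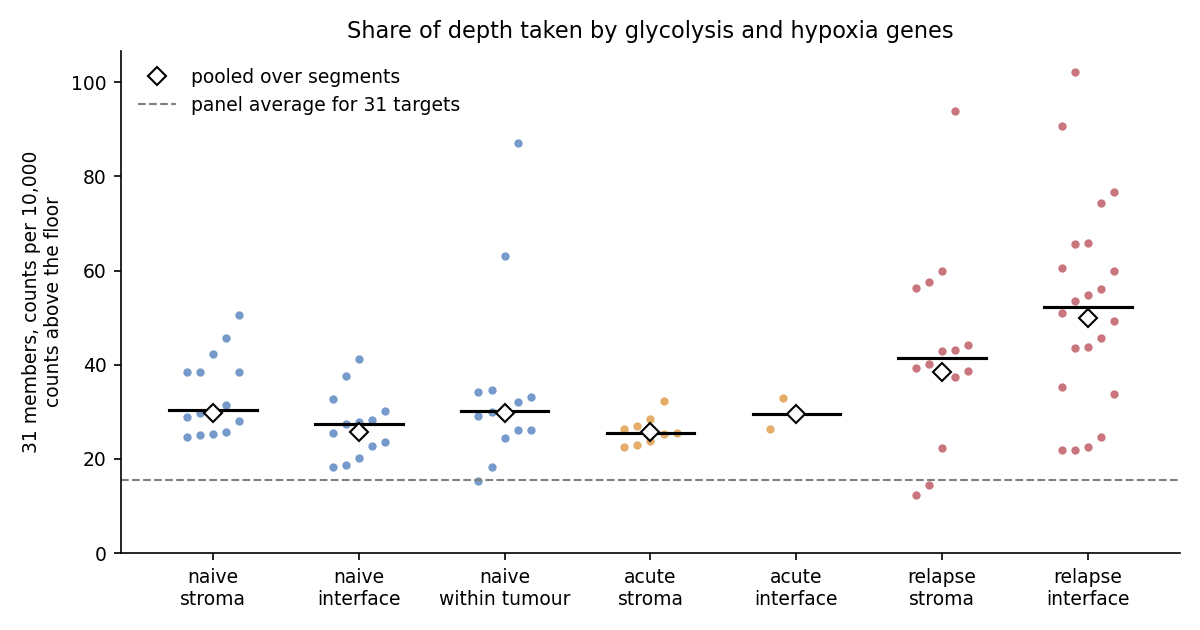
Counts of the 31 members per 10000 counts above the floor (vertical axis) in every segment of the 7 classes of stage and location (horizontal axis). Points are segments, bars are class medians, diamonds are pooled shares and the dashed line is the panel average of 15.5. The relapse interface has the highest pooled share, 49.9, and its segments spread from 21.9 to 102.2.

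By role, the 6 enzymes from Gapdh to Ldha carried the most counts (12.3 of each 10000 over all segments), against 7.23 for 12 hypoxia targets, 5.34 for 8 enzymes and regulators of the upper pathway, 3.30 for the regulators Hif1a and Txnip and 1.33 for 3 transporters. A target was taken as measured in a segment when its count exceeded the limit of quantitation set by the negative probes (at least 2 counts). Of the 31 members 20 were above the limit in at least 10% of segments and were tested. Gapdh, the dehydrogenase in the middle of the chain, was above it in 80 of 89 segments and Pkm, the pyruvate kinase, in 59. Txnip was above it in 48, Pgam1 and Eno1 in 39 each, and Ldha and Mif in 37 each. The lactate exporters Slc16a1 (12) and Slc16a3 (10) and the hexokinase Hk1 (11) and the isomerase Gpi1 (9) were near the lower end of those tested.

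The members that were not tested include most of the classic hypoxia markers. The glucose transporter Slc2a1 was above the limit in 5 segments, the hexokinase Hk2 in 6, Pfkp in 8 and Pfkfb3 in 5. The angiogenic factor Vegfa was above it in 7, the carbonic anhydrase Car9 in 4, the HIF prolyl hydroxylase Egln3 in 7, the peptide hormone Adm in 6, Ankrd37 in 1, and the collagen prolyl hydroxylases P4ha1 and P4ha2 in 8 each. Their highest count in any segment was between 8 and 14. These 11 members were not tested. Each target has its own probe and near-identical copies may share one, so levels were compared between segments for 1 target at a time.

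On the naive slide, 4 of the 20 tested members were lower at the interface than in stroma: the aldolase Aldoa, the triosephosphate isomerase Tpi1, the lactate dehydrogenase Ldha and Txnip. No tested member was called higher. Over all 5087 tested targets 10.6% were called in this comparison and 10.1% were called lower. Fewer cells of a type and less RNA per cell cannot be told apart in such segments.

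The deposited normalised value of Aldoa was 3.74 to 22.4 in 15 naive stroma segments (median 7.48) and 1.25 to 11.2 in 13 interface segments (median 2.99). The ranges overlap, with the highest values in stroma. Aldoa was lower at the interface by a log2 difference of -1.03 (SE 0.253, limma, adjusted p = 0.00224). Tpi1 ranged from 2.14 to 11.8 in stroma (median 3.74) and from 0.748 to 7.48 at the interface (median 1.87). Its count passed the limit of quantitation in 5 of 15 stroma segments and in 0 of 13 at the interface. It passed the floor in 9 of 15 and 3 of 13, although the interface segments had the higher median depth. A single count stands at 3.74 in the 51 segments with the lowest factor and at less in deep ones, so values below 3.74 are often single counts of deep segments. The difference in Tpi1 was -0.93 (SE 0.223, limma, adjusted p = 0.0018).

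Ldha ranged from 1.87 to 11.2 in stroma (median 7.48) and from 1.25 to 5.61 at the interface (median 3.74), a difference of -0.75 (SE 0.246, limma, adjusted p = 0.0309). Txnip ranged from 5.61 to 31.2 in stroma (median 18.7) and from 3.74 to 18.7 at the interface (median 8.73), and among segments of 10000 counts or more its median count was 8 in stroma and 7 at the interface. Its difference was -0.94 (SE 0.281, limma, adjusted p = 0.0148). For each of the 4 genes the classes overlap and the lowest value lies at the interface. For Aldoa, Tpi1 and Ldha that lowest value is a single count at the floor, and the segment's factor sets its height. Segments share slides and tissue pieces, and may share animals and tumours, so these p-values over segments, and those that follow, are too small.

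Other tested members of the chain had differences that did not pass at the naive interface. Gpi1 was at -0.55 (SE 0.204, limma, adjusted p = 0.0649) and Eno1, the enolase, at -0.55 (SE 0.263, limma, adjusted p = 0.175), while Gapdh was at -0.11 and Pkm at -0.28. Gpi1 passed without naive piece 1 (-0.73). The hypoxia targets Mif (0.45), a cytokine, and Bnip3 (0.24), a mitophagy receptor, had positive differences that did not pass either. Counts of Bnip3 passed the limit in 11 of 13 segments at the interface and 5 of 15 in stroma, and those of Mif in 10 of 13 and 5 of 15. The median difference of the 20 tested members was -0.26 and that of all tested targets -0.14. Of 59 further genes of these pathways on the panel 26 were tested, and 3 were called, all lower: Egln2, a HIF prolyl hydroxylase (-0.78), Lox, a collagen cross-linking enzyme (-0.56), and Bhlhe40, a transcription factor (-0.53).

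Markers of other cells and housekeeping genes moved with these members. At the naive interface 9 of 9 tested fibroblast markers, 7 of 10 macrophage markers and 4 of 8 housekeeping genes were called lower than in stroma. So were 2 of 5 adipocyte, 2 of 8 muscle, 1 of 3 endothelial and 1 of 12 keratinocyte markers. The fibroblast list took 13.6 to 240.2 of each 10000 counts in naive stroma segments and 7.21 to 235.6 at the interface, the macrophage list 4.59 to 98.4 and 2.98 to 126.7, the adipocyte list 1.64 to 82.5 and 0.961 to 11.9, and 0 members of these lists were at the floor in every segment of either class. Their part in the lower values was not tested.

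Stroma and interface segments of the naive slide lay partly in different tissue pieces. With the tissue piece as a fixed block, which compares locations within pieces and was added after seeing the data, 0 of the 4 passed, at differences of -0.20 for Aldoa (SE 0.345), -0.59 for Tpi1 (SE 0.311), -0.61 for Ldha (SE 0.346) and -0.92 for Txnip (SE 0.393). Over all tested targets this fit called 15, against 540. Naive pieces 1 and 4 held both stroma and interface segments. The median Txnip value in piece 1 was 28.9 in 3 stroma segments and 14.96 in 1 interface segment. In piece 4 it was 8.41 in 2 stroma segments and 8.10 in 8 interface segments. Naive tissue piece 4 held 8 of the 13 interface segments, and without it 0 of the 4 calls passed, at differences of -0.92 for Aldoa, -0.70 for Tpi1, -0.77 for Ldha and -0.96 for Txnip. Without naive piece 3 Aldoa (-0.69) and Ldha (-0.72) did not pass. Ldha also did not pass without naive piece 1 (-0.75) or 2 (-0.70), with no filter on low targets or with the tissue piece as a random block, and Txnip without naive piece 1 (-0.86) or 5 (-0.74). Scaling every segment to the same total in place of the depth covariate left 0 calls, with the differences between -0.82 and -0.49.

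Within the naive tumour, Txnip was the only tested member called against stroma (4.13% of all tested targets were called, 3.87% lower). Its value ranged from 3.74 to 18.7 in 14 segments (median 7.48), against 5.61 to 31.2 in stroma. The classes overlap, with 8 of 14 segments within the tumour and 14 of 15 in stroma above the limit of quantitation. The difference was -0.95 (SE 0.289, limma over segments, adjusted p = 0.0342). Aldoa was at -0.70 (SE 0.26, limma, adjusted p = 0.129) and Tpi1, at 1 or 2 counts in all 14 segments, at -0.53 (SE 0.23, limma, adjusted p = 0.232). Here 8 of 9 fibroblast, 6 of 10 macrophage and 3 of 5 adipocyte markers and 3 of 8 housekeeping genes were called lower, and their part was not tested. The Txnip call did not pass without naive piece 1 (-0.75), 4 (-1.27) or 5 (-0.62) or relapse piece 3 (-0.91), with no filter on low targets, with the tissue piece as a random or a fixed block (-0.93 with the fixed one, SE 0.37) or with segments scaled to the same total. The median Txnip value was 28.9 in stroma and 3.74 within the tumour in piece 1, and 22.4 and 5.61 in piece 5. In piece 4, with 7 of the 14 segments within the tumour, it was 8.41 in stroma and 9.35 within the tumour.

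From the naive interface to the interior of the tumour limma called 0 members and 0 of all tested targets (0%), with 371 targets but 0 members at an unadjusted p under 0.05. Scaled to the same total it also called 0. The Txnip difference was -0.01 (SE 0.303). Its medians on the naive slide were 18.7 in stroma, 8.73 at the interface and 7.48 within the tumour.

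**Figure D2:**
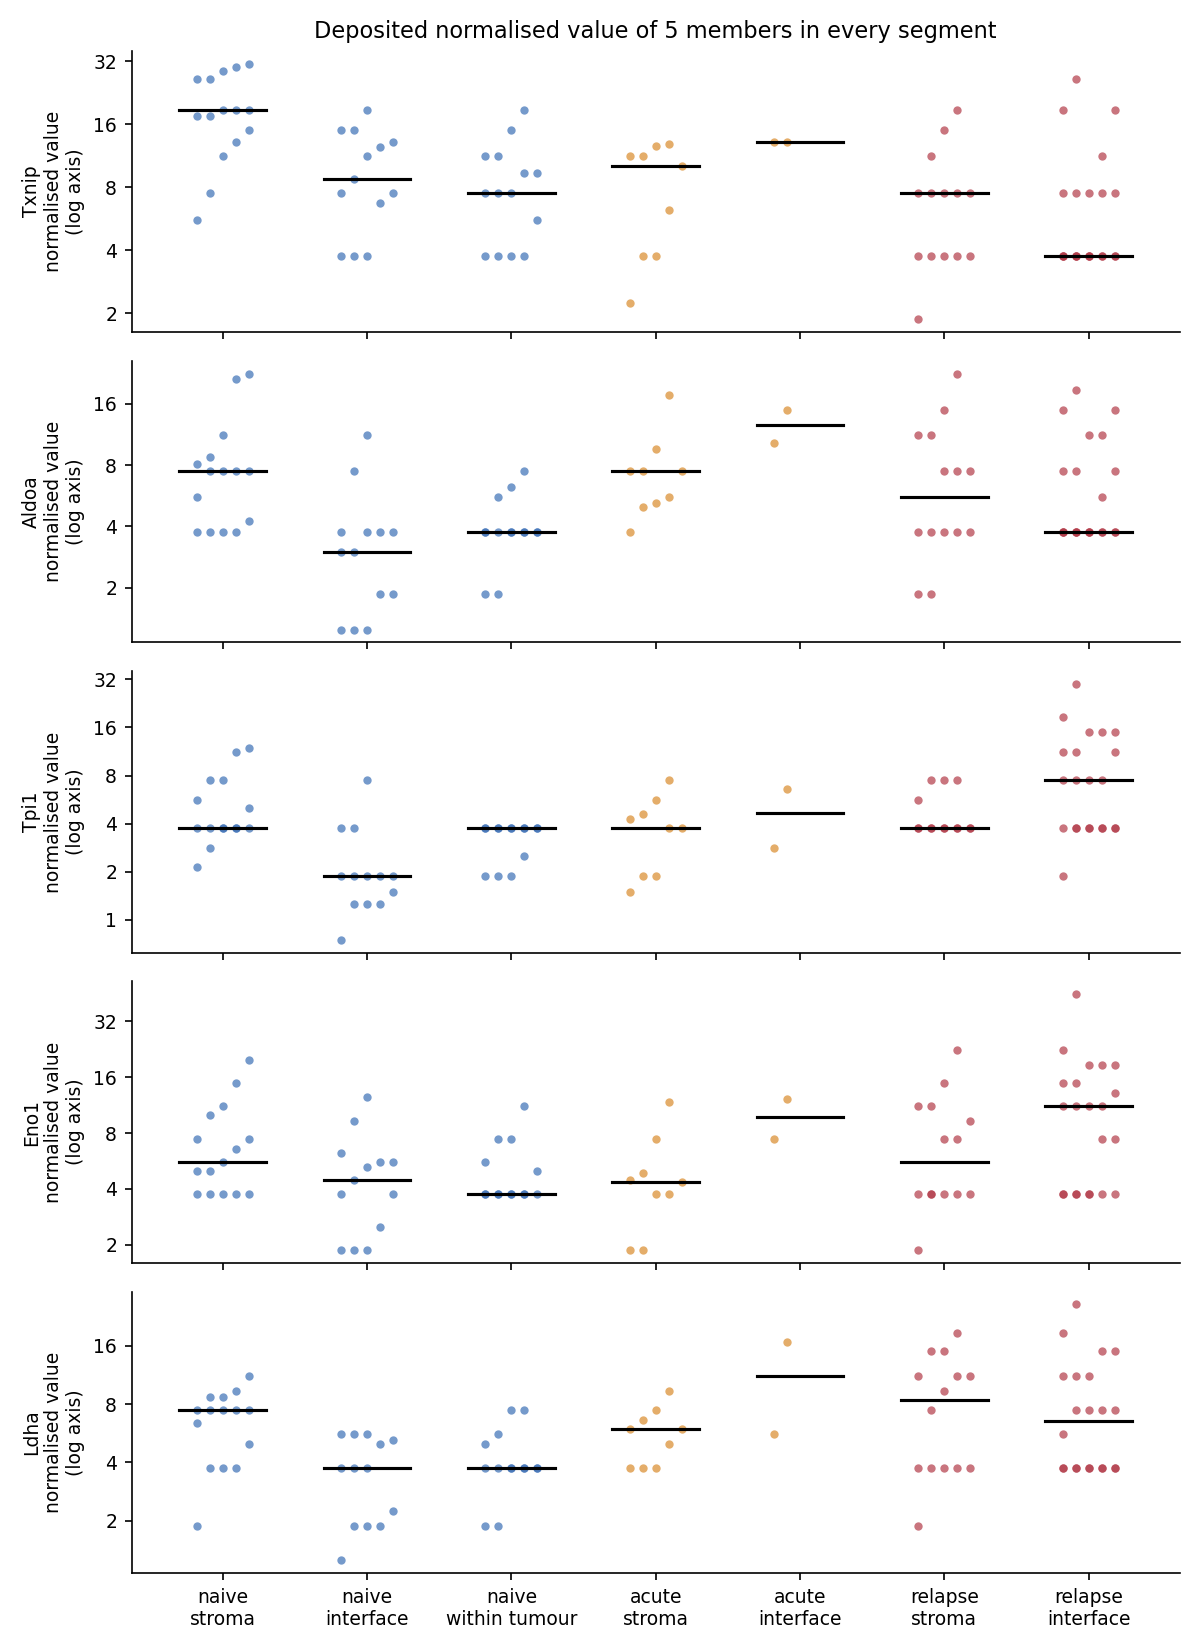
Deposited normalised value (vertical axis, log scale) of Txnip, Aldoa, Tpi1, Eno1 and Ldha in every segment of the 7 classes (horizontal axis), with bars at class medians. The Txnip median is 18.7 in naive stroma and 3.74 at the relapse interface, classes that were not compared with each other. The Eno1 median is 4.49 at the naive and 11.2 at the relapse interface. Many points at 3.74 are single counts at the floor.

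Stroma was sampled at all 3 stages. Between relapse and naive stroma, 1 of 20 tested members was called, Txnip, which was lower in relapse (1.67% of all tested targets were called, 1.38% lower). Its value ranged from 1.87 to 18.7 in 14 relapse stroma segments (median 7.48), against 5.61 to 31.2 in naive stroma (median 18.7). Its count passed the limit in 4 of 14 segments of relapse and 14 of 15 of naive stroma, and the upper part of the naive range lies above every relapse segment. The difference was -1.17 (SE 0.291, limma over segments, adjusted p = 0.00932). All Txnip calls, also those on the naive slide, use the same 15 naive stroma segments as reference, so they are not independent. Without naive stroma in the comparison, Txnip was not called. Its difference was -0.01 from the naive interface to the interior, -0.01 from relapse stroma to interface and -0.24 between the interfaces.

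The raw counts within 2 ranges of depth show the same order. Among segments under 10000 counts, Txnip had 2 to 7 counts in 4 naive stroma segments (median 5) and 1 to 4 in 9 relapse stroma segments (median 2). Among deeper ones it had 4 to 54 counts in 11 naive segments (median 8) and 1 to 5 in 5 relapse segments (median 2), though these naive segments were deeper still, with a median depth of 35284 against 15317. By tissue piece, the median value in naive stroma was 28.9 in piece 1, 16.2 in piece 3, 8.41 in piece 4 and 22.4 in piece 5. In relapse stroma it was 3.74 in piece 1, 13.1 in piece 2, 7.48 in piece 3 and 3.74 in piece 4, so the pieces of both slides overlap.

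In the same comparison 7 of 9 fibroblast, 2 of 10 macrophage and 1 of 5 adipocyte markers were called lower and 6 of 12 keratinocyte markers higher. The keratinocyte list took 20.5 to 121.3 of each 10000 counts in relapse stroma and 4.92 to 53.1 in naive stroma, and the fibroblast list 7.87 to 317.9 and 13.6 to 240.2, with 0 markers of either list at the floor in every segment. Their part in the Txnip difference was not tested. The call did not pass without naive piece 5 (-0.91), without relapse piece 3 (-1.15), with no filter on low targets or scaled to the same total (-1.09). With plate as a covariate the difference was -2.07 and did not pass either.

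In acute stroma, 0 of 20 members were called by limma against naive stroma (0.118% of all tested targets were called; 541 targets and 4 members had an unadjusted p under 0.05). Txnip ranged from 2.24 to 12.8 in 9 acute segments (median 10.1), and its difference of -1.25 (SE 0.317, limma, adjusted p = 0.0792) did not pass. It passed with a stricter filter of 20% of segments and without naive piece 3 (-1.40) or 4 (-1.46). The others at an unadjusted p under 0.05 were Gapdh (-0.85), Eno1 (-0.68) and Pdk1 (0.41), the kinase that keeps pyruvate out of mitochondria. Acute stroma had the deepest segments, with a median depth of 81873. Both comparisons share the naive stroma segments.

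The acute interface had 2 segments and was not tested. Txnip had 14 counts in each, Tpi1 3 and 7, Eno1 8 and 13, Ldha 6 and 18, Aldoa 11 and 16, and Gapdh 25 and 26. Their normalised values lay inside the range of the relapse interface for all 6 genes. They also lay inside the range of the naive interface, except the higher value of Aldoa and that of Ldha.

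At the interface, 3 enzymes were higher in relapse than in the naive tumour: Eno1, Tpi1 and Ldha. They were 3 of 20 tested members of a list chosen with earlier results known, where 1.3% of all tested targets were called (1.26% higher). Their median counts at the relapse and the naive interface were 3 and 3 for Eno1, 2 and 1 for Tpi1 and 2 and 3 for Ldha, while the relapse segments were shallower (median depth 5564.5 against 26878). A single count at the floor stands at a higher normalised value in most of these relapse segments than in most naive ones. Eno1 ranged from 3.74 to 44.9 in 22 relapse segments (median 11.2) and from 1.87 to 12.5 in 13 naive segments (median 4.49). The highest relapse segments lie above every naive one and the lower parts overlap. The difference was 1.40 (SE 0.273, limma over segments, adjusted p = 0.000316).

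Tpi1 ranged from 1.87 to 29.9 at the relapse interface (median 7.48) and from 0.748 to 7.48 at the naive interface (median 1.87). In counts it ranged from 1 to 8 in relapse (median 2), with 9 of 22 segments above the limit of quantitation, and from 1 to 2 in naive (median 1), with 0 of 13. Pooled, Tpi1 took 2.80 of each 10000 counts at the relapse interface, 0.139 at the naive interface and 0.95 in naive stroma. The difference was 1.33 (SE 0.232, limma over segments, adjusted p = 2.71e-05). Ldha ranged from 3.74 to 26.2 in relapse (median 6.54) and from 1.25 to 5.61 in naive (median 3.74), a difference of 1.08 (SE 0.255, limma over segments, adjusted p = 0.0076).

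The counts were also set side by side above a lower bound of depth, where the naive segments were still the deeper ones. Among segments of 10000 counts or more, Eno1 had 1 to 12 counts in 5 relapse interface segments (median 6, median depth 13305) and 1 to 10 in 11 naive ones (median 3, median depth 26969). Tpi1 had 1 to 5 counts in those 5 (median 1) and 1 to 2 in the 11 (median 1), so its higher counts lay mostly in shallower relapse segments, where it had 1 to 8 counts in 17 segments (median 2). In 4 of 22 relapse interface segments all 3 enzymes were above the limit of quantitation together, against 0 of 13 naive interface segments and 3 of 15 in naive stroma. In 7 of the 22 none of the 3 was. These 3 enzymes were chosen because they were called higher at the relapse interface, so these counts describe the calls and do not test them. With Tpi1 above the limit in 0 of 13 naive interface segments, the joint count there could only be 0. The limit was also higher in the deepest segments.

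**Figure D3:**
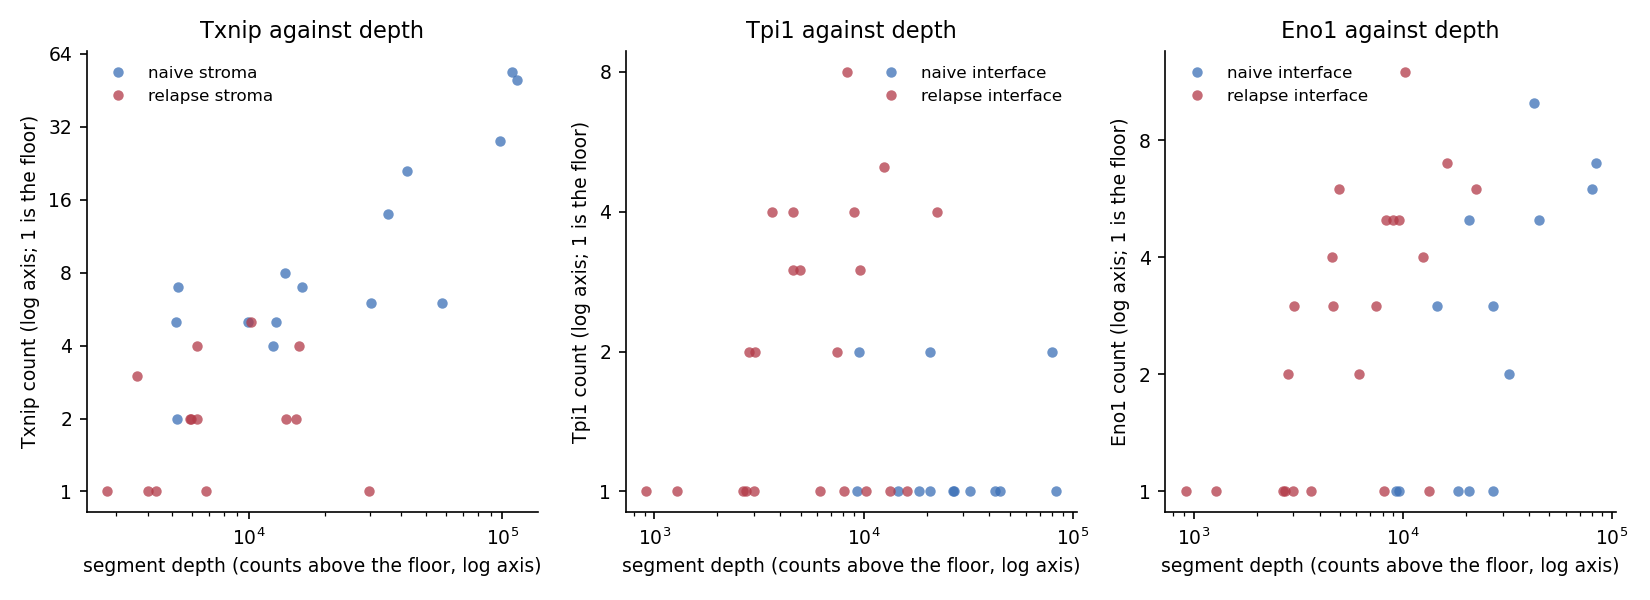
Recovered count (vertical axis, log scale, 1 is the floor) against depth of the segment in counts above the floor (horizontal axis, log scale) for Txnip in naive and relapse stroma and for Tpi1 and Eno1 at the naive and relapse interface. Txnip counts in naive stroma rise to 54 in the deepest segments; Tpi1 does not exceed 2 counts at the naive interface at any depth and reaches 8 at the relapse interface.

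The remaining tested members did not pass. Gapdh was at 0.85 (SE 0.322, limma, adjusted p = 0.177), Aldoa at 0.84 (SE 0.263, limma, adjusted p = 0.0888) and Pkm at 0.66 (SE 0.31, limma, adjusted p = 0.312). Aldoa passed without naive piece 1 (1.09). Of the other enzymes Pgam1 was at 0.22, Hk1 at -0.03, Pgk1 at -0.07 and Pfkl at -0.08. Among the hypoxia targets Ddit4, an mTOR inhibitor induced by stress, was at 0.48, Mif at 0.34, Pdk1 at 0.28, Ndrg1 at 0.12 and Bnip3 at -0.01. Hif1a itself was at 0.45 (SE 0.256, limma, adjusted p = 0.427) and Txnip at -0.24. The median difference was 0.34 over the 20 members, 0.76 over the 6 lower and 0.35 over the 5 tested upper glycolytic enzymes, 0.28 over the 5 tested hypoxia targets and 0.13 over all tested targets. Of the further pathway genes 1 of 26 was called, Bhlhe40, which was higher (0.65).

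Keratinocyte markers moved with these enzymes. At the interface 7 of 12 tested keratinocyte markers and 2 of 8 housekeeping genes were called higher in relapse, the keratins with differences of up to 3.23 for Krt5. The keratinocyte list took 23.5 to 306.6 of each 10000 counts at the relapse interface and 5.76 to 62.8 at the naive interface, with 0 markers at the floor in every segment of either class. Their part in the enzyme differences was not tested. Plate and stage are the same split here except for the acute segments; with plate as a covariate the differences were 1.45 for Eno1, 1.59 for Tpi1 and 1.34 for Ldha, and 0 of 3 passed. Without naive piece 4 they were 1.34, 1.09 and 1.15, and 0 of 3 passed. Without relapse piece 1 Ldha did not pass (0.95). Scaled to the same total only Tpi1 passed (1.30), and of all called targets 26 of 138 were higher, against 64 of 66 with the deposited scaling.

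**Figure D4:**
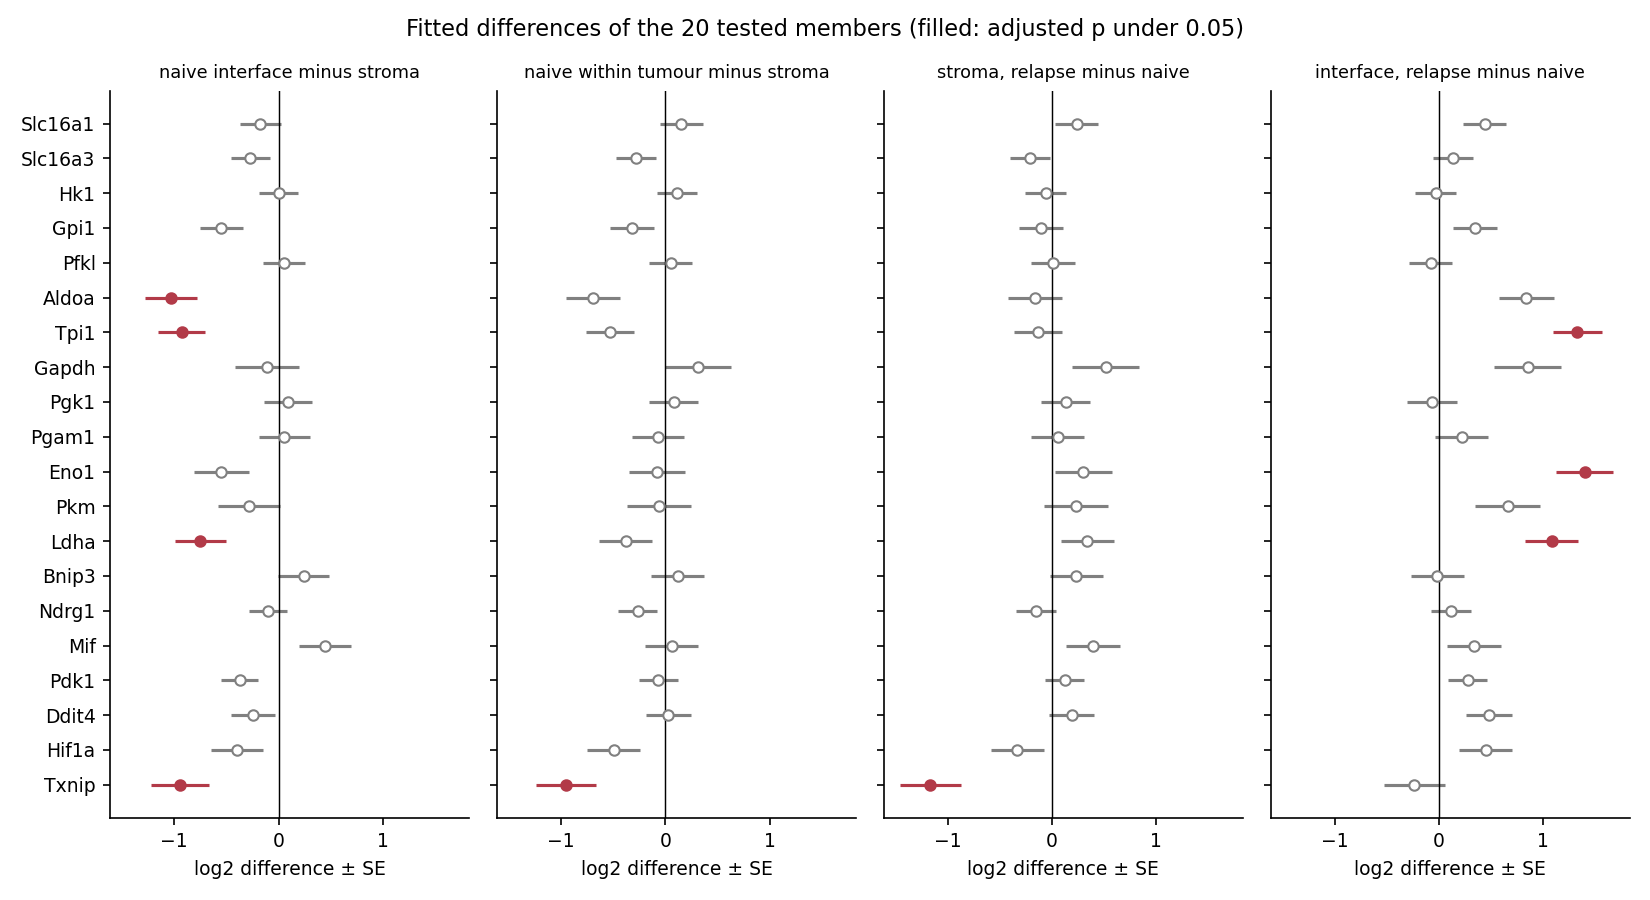
Fitted log2 difference (horizontal axis) with its SE for the 20 tested members (vertical axis, ordered by role) in 4 comparisons; filled points have an adjusted p under 0.05. Aldoa, Tpi1, Ldha and Txnip are lower at the naive interface than in naive stroma. Txnip is also lower within the naive tumour and in relapse stroma, against the same naive stroma segments. Tpi1, Eno1 and Ldha are higher at the relapse than at the naive interface.

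On the relapse slide, the interface did not differ from stroma in any member by limma: 0 of 20 were called, and 0% of all tested targets (122 targets at an unadjusted p under 0.05). The 2 members at an unadjusted p under 0.05 were Eno1 (0.55, SE 0.238) and Tpi1 (0.53, SE 0.203). The difference between the interface effects of both slides was tested by the interaction, in which 3.44% of all tested targets were called and 3.4% were called higher. Of the members Tpi1 passed, with 1.46 (SE 0.302, limma over segments, adjusted p = 0.0013): it was lower at the interface than in stroma on the naive slide (-0.93) and had a difference of 0.53 on the relapse slide. Eno1 (1.10, SE 0.355, limma, adjusted p = 0.0581) and Aldoa (1.001, SE 0.342, limma, adjusted p = 0.0768) did not pass. Both passed without relapse piece 2 (1.25 and 1.17), Aldoa also without naive piece 1 (1.21), and Eno1 also without acute piece 1 (1.12) and with the 20% filter. In the interaction 7 of 9 fibroblast, 3 of 12 keratinocyte, 2 of 10 macrophage and 2 of 5 adipocyte markers and 1 of 8 housekeeping genes were called higher, and their part was not tested. The Tpi1 call did not pass without naive piece 4 (1.24), when scaled to the same total (1.41) or with the tissue piece as a fixed block (1.16, SE 0.385), where 0 of all tested targets were called by limma (449 at an unadjusted p under 0.05).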

How the data were processed

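GeoMx tag libraries of 89 segments were analysed. The deposited signal is, per the file headers and as checked on the values, a tag count divided by a deposited ratio, the segment's upper-quartile factor; multiplied back, 99.986% of values were whole within 1e-06. Negative-probe signal was used as deposited. The submitters' processing notes name mm10 and Seurat; aligner and counter are not given in the sources used here. The limit of quantitation was the geometric mean of the negative probes times the square of their geometric SD, or 2 counts where that was larger, and 5087 of 19962 targets exceeded it in 10% of segments.

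These were compared with limma 3.58.1 in R 4.3.3 (two-sided) on log2(value + 1), with 1 mean per class and log2 depth as covariate; p-values were adjusted over them by Benjamini-Hochberg, at 0.05. Log2 differences on this scale can understate the change of low targets. A single count also stands at a higher value in segments with a smaller factor. The scale can thus also add to or create differences of low targets between classes with unlike factors, and its part was not tested. The replicate is the segment. Tissue pieces (14) are groups of segments lying within 8000 position units of a neighbour. The planned count test was not run. Members and lists were chosen with earlier results of these data known. Named are tested members, further pathway genes past the threshold, and marker genes by list. The fit was tested on simulated data, where it also called some unchanged targets, most of them between the interfaces, and many more there without the depth covariate. Alternatives were the filter, pseudocount, scaling, depth covariate, plate, tissue piece as a random or fixed block, and leaving out each piece.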

Additional observations from a re-analysis of the deposited data

Results flagged for a closer look

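In acute stroma, 1 of 9 segments stood apart in Gpi1, the glucose-6-phosphate isomerase: its log2 value was 3.41 and the next highest 2.35, and this gap was 0.558 of the range of the 9 segments, above the critical value of 0.493. There were 21 values checked in this way, and chance alone marks about 1 in 20 groups.

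The interface effect on Tpi1 differed between the slides by 1.46 on the log2 scale in the interaction test (limma over segments, adjusted p = 0.0013; adjusted p between 0.000604 and 0.301 over the alternatives).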

How the results depend on the processing

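None of the 10 calls of single members changed sign under any alternative run. Without naive piece 4, 9 of the 10 did not pass, and scaled to the same total 9 of 10. Plate as a covariate lost 4, no filter 3 and the random block for tissue piece (correlation 0.0363) 2; a pseudocount of 0.5, no depth covariate, a filter of 20% and leaving out segments under 1000 counts lost 0. The cause was not tested. Called members numbered 6 for interface, relapse minus naive, with no depth covariate, 1 scaled to the same total and 0 with plate. They numbered 0 scaled to the same total for naive interface minus stroma and for the interaction. With the tissue piece as a fixed block, an alternative chosen after seeing the data that can be fitted only within a slide, called members were 0 for naive interface minus stroma, 0 for naive within tumour minus stroma and 0 for the interaction, so all 6 calls between locations did not pass. For naive within tumour minus stroma they were 0 scaled to the same total, with no filter and with the random block, and for relapse minus naive stroma 0 scaled to the same total, with no filter and with plate. At the 20% filter, which tests fewer targets, they were 2 in the interaction and 1 for acute minus naive stroma. Leaving out each tissue piece gave 0 to 4 called members for naive interface minus stroma, 0 to 1 for naive within tumour minus stroma, 0 to 1 for acute minus naive stroma, 0 to 1 for relapse minus naive stroma, 0 to 4 for the interfaces and 0 to 3 for the interaction. The median of all targets moved from 0.13 to -0.28 for the interfaces, from -0.14 to 0.06 for naive interface minus stroma and from 0.16 to -0.10 for the interaction when scaled to the same total; for the interface of relapse the differences of Eno1 (1.06), Ldha (0.81) and Tpi1 (1.30) stayed above that median.

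With the negative-probe mean subtracted, the pooled share was 36.2 in naive stroma, 29.7 at the naive interface and 33.2 within the naive tumour. It was then 34.6 in acute stroma, 39.2 at the acute interface, 42.04 in relapse stroma and 58.02 at the relapse interface. Acute stroma thus lay above the naive tumour interior with this subtraction and below it without. Without Gapdh the pooled share was 22.5 in acute stroma. Leaving out 1 tissue piece, it was 24.7 to 26.1 in acute stroma, 26.4 to 32.9 at the acute interface, 24.7 to 26.6 at the naive interface, 28.8 to 30.4 in naive stroma, 28.9 to 30.99 within the naive tumour, 46.9 to 52.5 at the relapse interface and 33.4 to 42.3 in relapse stroma. All targets called numbered 735 in naive interface minus stroma with no filter, 26 scaled to the same total, 371 with the random block and 15 with the fixed block, against 540. No paired analysis was possible because the labels give 1 group and its replicate numbers are only names; the tissue pieces that locations share were used as the block instead. The planned count test was not run. Most members lie within a few counts of the floor, so depth limits each single value.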
